A study of Mus musculus with 10 samples.

Results

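The genes described here encode translation factors and ribosomal proteins. They were chosen by symbol, as every gene in the authors' tables of intronic polyadenylation whose symbol begins with Eif, Eef, Rpl, Rps, Mrpl or Mrps. The rule found 29 of 1453 genes, with 44 distinct sites after overlapping positions were merged (46 of 2075 sites when counted by exact coordinates) and 49 of 2311 entries in the tables. By role, 14 genes encode initiation factors, 2 elongation factors, 4 cytosolic ribosomal proteins and 8 mitochondrial ribosomal proteins, and 1 (Eif2ak4) is a kinase that regulates initiation. No gene of the S6 kinase type (Rps6k) was among them.

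The 3' ends of polyadenylated RNA were sequenced in 10 libraries of cultured mouse mammary tumour cells, 2 in each of 5 groups. The lines 67NR and 168FARN are labelled non-invasive and 4T07 and 4T1 invasive; the design text calls these pairs non-metastatic and metastatic. The last group, 4T1-U1-ASO, consisted of 4T1 cells treated with a morpholino antisense to U1; this small nuclear RNA binds 5' splice sites and shields transcripts from early cleavage and polyadenylation. The design text names a mock-transfected control, but for 4T1 the labels state no treatment, so the delivery reagent and the morpholino cannot be told apart. All cells were grown in the same medium with serum, each line is a single cultured line, and whether replicate libraries had cultures of their own is not labelled. The p-values below therefore speak only of the spread among these libraries, which may be technical.

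Intronic polyadenylation (IPA) ends a transcript inside an intron, upstream of the last exon, and gives a shorter mRNA that can encode a protein with another C-terminus. Ribosomes are built from proteins of a large and a small subunit, and mitochondria carry a set of their own. Initiation factors bring the small subunit, the initiator tRNA and the capped mRNA together, and elongation factors then deliver the aminoacylated tRNAs. IPA usage is given here as the percentage of reads at the site among the reads at the site and at the gene's last exon in 1 library, so library scaling cancels in it. Values are the mean ± SD over 2 libraries. Numbers of reads are unscaled. Sites of 1 gene are numbered from 5' to 3', and since they share 1 last exon their usages are not independent. All positions are those of the authors' tables, on the mouse build mm9, and that they lie in introns is taken from those tables.

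Many mRNAs of ribosomal proteins and elongation factors are known to begin with a run of pyrimidines, the 5' terminal oligopyrimidine tract through which mTOR signalling controls their translation. To show the sequence around the starts of these genes, windows from 10 bases before to 20 bases from the annotated start were read from RefSeq promoters on GRCm38.p6, where 22 of the 29 genes had an entry. Capitals mark the longest run of C or T on the strand of the gene. The first 3 are genes with a run of at least 8 in the window; in Rplp2 and Eef1a1 it covers the annotated start, and in Rps26 it begins after it. The others are a helicase and a cap-binding protein with no such run, and of the 3 annotated starts of Eif4e2 the one with the longest run is shown. Roles do not divide this cleanly among the windows left out. In the initiation factor Eif3l a run of 10 covers the annotated start, and in the ribosomal protein Rpsa the longest run is 5.
Rplp2, chr7:141447641-141447670, plus strand: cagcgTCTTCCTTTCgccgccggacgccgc
Rps26, chr10:128626487-128626516, minus strand: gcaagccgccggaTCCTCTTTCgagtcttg
Eef1a1, chr9:78481705-78481734, minus strand: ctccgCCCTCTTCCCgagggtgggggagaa
Eif4a2, chr16:23107458-23107487, plus strand: gaaaCCCCgtaggagcagggcggccgagga
Eif4e2, chr1:87213929-87213958, plus strand: ggCCCTTagcgatgggacccggtagagcgg
A run of at least 8 pyrimidines lay in 6 of 26 windows of these genes (23.1%) and in 11.2% of all 32851 windows, and it covered the annotated start in 3 of the 26 and in 3.77% of all. Anywhere in the window, it lay in 2 of 3 windows of cytosolic ribosomal proteins, 1 of 1 of elongation factors and 2 of 15 of initiation factors. It lay in 1 of 2 windows of Eif2ak4 and 0 of 5 of mitochondrial ribosomal proteins. A run in the window is not a 5' terminal tract unless transcripts begin in it, and these libraries read 3' ends, so the starts used here were not measured.

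Complete peak lists held 2499475 to 3347776 reads per library, while the list of 67NR replicate 2 covered 10 chromosomes. The tables hold only sites whose adjusted p in the authors' own test was at most 0.1. A gene that is absent from a table was therefore either not tested or did not pass, and nothing is said of its usage. For the same reason nearly every listed site passes a second test on the same reads, and such a pass is no independent evidence. Processed copies of ribosomal protein genes, Eef1a1 and Eif4a1 are common in the mouse genome, and the sources used here do not say how reads with several equal placements were treated, so the levels of these genes are uncertain. The tables cannot check the cell type: of 7 epithelial markers only Cdh1 was listed, and of 5 fibroblast and 4 leukocyte markers none.

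Antisense blocking of U1 was followed by higher IPA usage at most of these sites. In 4T1-U1-ASO against 4T1, 38 sites of 24 genes were listed, and usage was higher at 30 of them and lower at 8. Higher sites made up 78.9% of these 38 and 87.6% of all 1561 listed sites, and lower sites 21.1% against 12.4%. The usage of the U1-ASO and 4T1 libraries did not overlap at any of the 38 sites, as at 99.9% of all listed sites. At the 30 higher sites the median usage was 4.86% with the morpholino and 0.896% without it. Over all 1368 higher sites it was 5.17% and 0.739%. In the authors' deposited table these 30 sites had a median log2 fold change of 1.66, and all 1368 one of 1.93.

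All 38 sites passed edgeR's quasi-likelihood test of site reads relative to last-exon reads, 30 upward (87.7% of 1557 tested sites passed upward) and 8 downward (12.3%). Without 4T1-U1-ASO replicate 1, 20 of the 38 passed. Site reads were few at many of them, with under 20 reads in every library at 16 of 38.

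**Figure D1:**
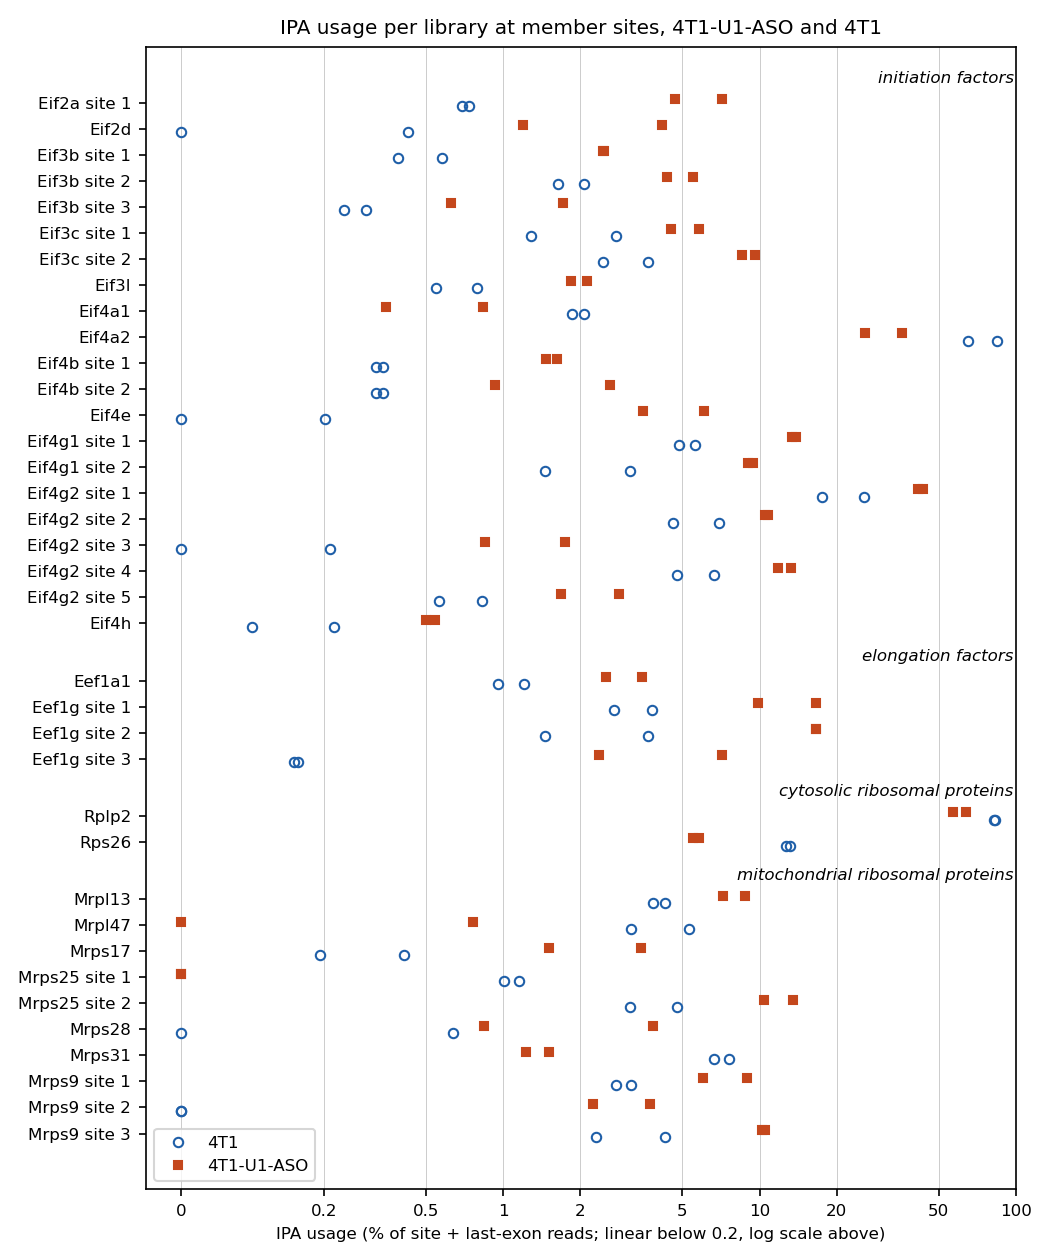
IPA usage (percent of site and last-exon reads, linear below 0.2 and logarithmic above) of 37 of the 38 member sites listed in 4T1-U1-ASO against 4T1; each symbol is 1 library (open circles 4T1, filled squares 4T1-U1-ASO). The filled squares lie to the right at 30 sites and to the left at 7, among them the ribosomal proteins Rplp2 and Rps26 and both Eif4a genes.

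Initiation factors, the largest group by role, had 19 higher sites in 10 genes and 2 lower sites in 2 genes. Of all 1561 listed sites 87.6% were higher, so this count does not set initiation factors apart. Eif4g2 encodes a relative of the scaffold protein eIF4G that lacks the part binding the cap-binding protein. It had 5 listed sites, more than any other of these genes. Its most 5' site (chr7:118223694-118223843) held 608 and 582 reads in the U1-ASO libraries and 290 and 300 in 4T1. The last exon held 788 and 816 reads against 843 and 1417. Usage was 42.6% ± 1.4 with the morpholino and 21.5% ± 5.7 without it (SD, n = 2), a log2 change relative to the last exon of 1.46 ± 0.28 (SE, adjusted p = 0.000554, edgeR). Both U1-ASO libraries were above both 4T1 libraries.

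The other Eif4g2 sites also had higher usage with the morpholino. Site 2 moved from 5.77% ± 1.7 to 10.6% ± 0.16 and site 4 from 5.71% ± 1.3 to 12.5% ± 1.1. Site 3 was among the 6 largest rises of the authors' deposited table (log2 fold change 2.44) and held 14 and 7 reads with the morpholino and 0 and 3 without it. Site 5 moved from 0.692% ± 0.19 to 2.26% ± 0.81. Summed over the 5 sites, usage was 51.0% ± 1.7 in U1-ASO libraries and 28.7% ± 6.5 in 4T1. These are shares of the reads at the listed sites and the last exon, without any unlisted ends of Eif4g2.

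Eif4g1 encodes the scaffold itself, which links the cap-binding protein to the small ribosomal subunit. Its site 1 (chr16:20681521-20681997) held 92 and 94 reads with the morpholino and 76 and 65 without it. Site 2 (chr16:20689932-20690939) held 62 and 58 against 19 and 41. The last exon held 596 and 584 against 1282 and 1275 reads, so the site counts were close or higher while the last-exon counts were lower. Usage over both sites was 20.6% ± 0.084 with the morpholino and 7.29% ± 0.55 without it.

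Eif4e, the cap-binding protein, had the largest log2 fold change of these genes in the authors' deposited table, 3.46. The site (chr3:138212896-138213266) held 18 and 12 reads in U1-ASO and 0 and 1 in 4T1, next to 279 and 329 and to 362 and 496 last-exon reads. Usage was 4.79% ± 1.8 and 0.101% ± 0.14. The groups were separate, but the 4T1 value rests on 1 read. Eif2a, a factor that can deliver initiator tRNA and is not a subunit of eIF2, held 10 and 14 reads at its site 1 (chr3:58341453-58341530) against 1 and 2, and usage was 5.92% ± 1.7 against 0.712% ± 0.032.

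eIF3 is the multi-subunit factor that joins the small subunit to the mRNA. Eif3b had 3 listed sites, with a summed usage of 8.17% ± 0.067 with the morpholino and 2.57% ± 0.40 without it. Its sites together held 66 and 57 reads against 61 and 48. Its last exon held 747 and 637 against 2075 and 2049. These unscaled site reads overlapped between the groups, and the last-exon reads did not. Eif3c showed another pattern. Its site 2 (chr7:133700281-133701014) held 126 and 101 reads against 35 and 29, and its site 1 (chr7:133702163-133702524) 73 and 51 against 26 and 15, next to 1181 and 1080 against 916 and 1152 in the last exon. Summed usage was 13.4% ± 1.5 and 4.96% ± 1.8.

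Eif4b, which stimulates the helicase eIF4A, had 2 sites with 4 to 9 reads per U1-ASO library and 2 reads at each site in each 4T1 library. Summed usage was 3.26% ± 1.0 and 0.657% ± 0.031. The remaining initiation factors with a higher site were Eif2d, Eif3l and Eif4h, with usage of 0.521% to 2.67% in U1-ASO and of 0.159% to 0.669% in 4T1.

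Eif4a1 and Eif4a2, paralogues that encode the helicase unwinding the 5' end of mRNAs, were the 2 initiation factors with lower usage. The Eif4a2 site (chr16:23111317-23111837) held 30 and 37 reads in U1-ASO and 149 and 141 in 4T1. The last exon held 86 and 66 reads against 28 and 76. In 4T1 the intronic end thus held more reads than the last exon, with a usage of 74.6% ± 14, and in U1-ASO it held fewer, at 30.9% ± 7.1. The log2 change relative to the last exon was -2.73 ± 0.47 (SE, adjusted p = 0.000336, edgeR). The Eif4a1 site (chr11:69481333-69481557) held 6 and 3 reads against 50 and 54, and the last exon 713 and 858 against 2633 and 2563. Usage was 0.591% ± 0.34 against 1.96% ± 0.14, so that both ends of Eif4a1 had fewer reads with the morpholino and the site the more so. The log2 change of Eif4a1 relative to the last exon was -1.74. It was -2.43 without 4T1-U1-ASO replicate 1 and -1.20 without its replicate 2.

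Both elongation factors had higher usage, at 4 sites. As 87.6% of all 1561 listed sites were higher, this count does not set elongation factors apart. Eef1g encodes a subunit of the complex that recharges the tRNA-delivering factor eEF1A with GTP, and 2 of its 3 sites were among the 6 largest rises in the authors' deposited table. Site 2 (chr19:9046113-9046604) held 26 and 33 reads in U1-ASO and 9 and 24 in 4T1, and site 3 (chr19:9048036-9048156) 10 and 4 against 1 and 1. Site 1 held 26 and 18 against 17 and 25, which overlap. The last exon held 130 and 165 reads against 610 and 632. Usage summed over the 3 sites was 28.6% ± 5.2 with the morpholino and 5.79% ± 2.2 without it. Eef1a1, which encodes eEF1A, held 43 and 40 site reads against 40 and 35, next to 1191 and 1543 against 3278 and 3634 in the last exon.

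**Figure D2:**
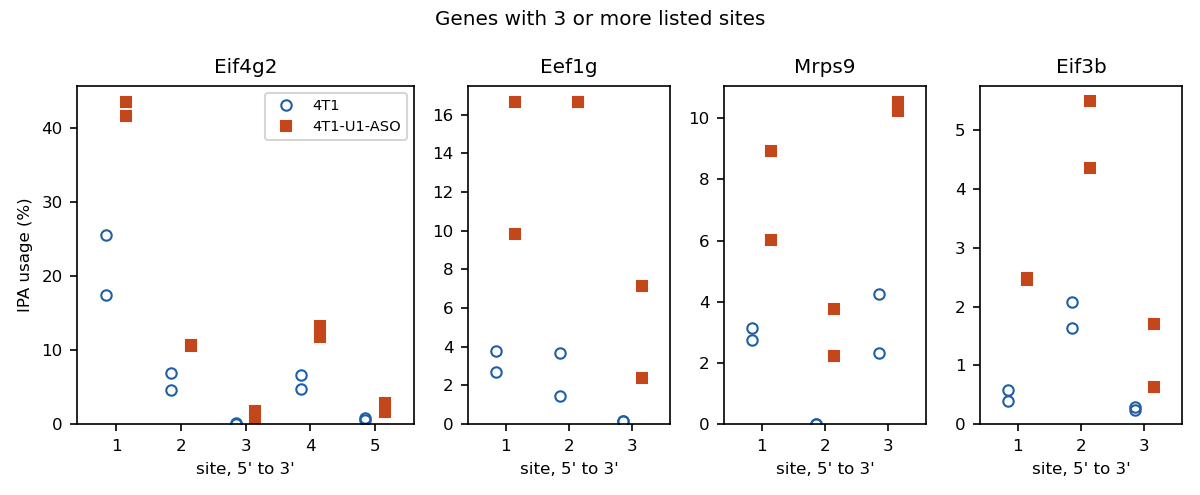
IPA usage (percent) of each listed site, numbered from 5' to 3', in the 4 genes with 3 or more listed sites; each symbol is 1 library (open circles 4T1, filled squares 4T1-U1-ASO), and the vertical scale differs between genes. In all 4 genes the usage of every listed site was higher in the U1-ASO libraries, and in Eif4g2 the most 5' site was used most in both groups.

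All 3 listed cytosolic ribosomal proteins had lower usage with the morpholino, where 12.4% of all 1561 listed sites were lower. A difference by role was not tested. Rplp2 is a protein of the large subunit's stalk that recruits elongation factors. Among the member sites listed with U1-ASO that had at least 20 site and last-exon reads per library, it had the highest usage in both groups. Its site (chr7:148633804-148633951) held 37 and 53 reads in U1-ASO and 187 and 189 in 4T1, next to 28 and 30 against 38 and 42 in the last exon. Usage was 60.4% ± 4.9 and 82.5% ± 0.91, a log2 change of -1.61 ± 0.43 (SE, adjusted p = 0.00337, edgeR). Without 4T1-U1-ASO replicate 1 Rplp2 did not pass (-1.43, adjusted p = 0.057). Rps26, a protein of the small subunit near the mRNA exit, held 257 and 313 site reads against 978 and 1002 (chr10:128062260-128062351). Its last exon held 4421 and 5077 reads against 6712 and 6609, and usage was 5.65% ± 0.22 against 12.9% ± 0.32. It did not pass without 4T1-U1-ASO replicate 1 (adjusted p = 0.071, edgeR) or replicate 2 (adjusted p = 0.055). In both genes every U1-ASO library had fewer site reads than either 4T1 library.

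Mitochondrial ribosomal proteins moved in both directions, with 7 higher sites in 5 genes and 3 lower sites in 3. Among all 1561 listed sites 87.6% were higher and 12.4% lower. Mrps9, of the small subunit, had 3 higher sites. Its site 2 (chr1:42942416-42942945) held 7 and 14 reads in U1-ASO and 0 and 0 in 4T1; 0 reads next to 585 last-exon reads allow a usage of up to 0.513%, for counting error only. Site 3 (chr1:42955086-42955452) held 36 and 41 reads against 11 and 8, and usage over the 3 sites was 18.6% ± 1.0 against 6.06% ± 1.0. Mrps25, also of the small subunit, had 1 site in each direction. Its site 1 (chr6:92133831-92133994) held 0 and 0 reads in U1-ASO and 7 and 6 in 4T1, where 0 next to 500 last-exon reads allow up to 0.60%. Site 2 (chr6:92125708-92126018) held 29 and 39 against 30 and 19 reads, next to 250 and 250 against 599 and 587 in the last exon, so its usage of 11.9% ± 2.2 against 3.95% ± 1.2 went with lower last-exon reads.

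Mrpl47, of the large subunit, held 0 and 1 reads against 8 and 7 at its site (chr3:32628998-32629478), a usage of 0.382% ± 0.54 against 4.22% ± 1.5. Mrps31 held 2 and 3 reads against 8 and 11 (chr8:23534100-23534294), a usage of 1.37% ± 0.20 against 7.12% ± 0.70. Its last exon held 161 and 196 reads against 97 and 155. Mrpl13, Mrps17 and Mrps28 had 1 higher site each, with usage of 2.35% to 8.0% against 0.302% to 4.06%.

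A higher usage can come with more reads at the site, with fewer at the last exon, or with both, and these were tested apart. Such tests depend on how libraries are scaled. The authors' size factors were 1.25 and 1.27 for the U1-ASO libraries and 0.722 and 0.967 for 4T1, while the peak lists of these libraries held 2596503 and 2643219 against 2499475 and 2795040 reads. Scaling by those totals instead moved the median last-exon change of all 1125 genes from -0.66 to -0.06 log2, a shift of 0.61. Scaled counts are relative to the other reads of a library, and which scaling is nearer to the amounts in the cells was not tested. Whether fewer RNA molecules per cell or a smaller share of cells with the RNA gave a lower count cannot be told apart in such libraries.

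With the authors' size factors, last-exon reads fell in 21 of the 24 genes and rose in none; 55.1% of all 1125 genes fell and 9.16% rose. With scaling by totals, 12 of 24 fell and none rose, against 26% and 17% of all genes. The median last-exon change of the 24 genes was -1.09 log2 with size factors and -0.48 with totals, each below the median of all genes under the same scaling. Eef1g had the largest fall under both, -2.68 ± 0.23 (SE, adjusted p = 0.00033, edgeR) and -2.06 (adjusted p = 0.0036). Eif3l, Eif4a1, Eif3b, Eef1a1, Eif4g1 and Mrps25 fell under both as well, with log2 changes of -1.72 to -2.46 and of -1.10 to -1.84. The 3 genes that did not pass with size factors were Eif4a2 (0.01), Mrps31 (-0.06) and Mrps9 (-0.39). Without 4T1-U1-ASO replicate 1, 12 genes fell, and without its replicate 2, 13. The last-exon change of Eif3c turned sign with the scaling, from -0.46 (adjusted p = 0.042) to 0.15 (adjusted p = 0.40).

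Site reads alone could be tested at 25 of the 38 sites, the rest being removed by a filter on low counts. With the authors' size factors 4 of the 25 rose (53.4% of all 865 tested sites did) and 7 fell (16%). The 4 were Eif4e, both Eif3c sites and Mrps9 site 3. Of the 19 tested sites with higher usage, 14 passed in neither direction and 1, Eif3b site 2, fell (adjusted p = 0.043, edgeR), a call lost with TMM (adjusted p = 0.14), DESeq2 (0.22), no filter (0.054) and totals (0.70). With scaling by totals 13 sites rose (77.5% of all 898) and 5 fell (10.7%). The 13 then included 4 of the 5 Eif4g2 sites, site 1 with a log2 change of 1.02 (adjusted p = 2.4e-10, edgeR) against 0.41 with size factors (adjusted p = 0.066). The number that rose was 0 without 4T1-U1-ASO replicate 1, 2 without its replicate 2 and 7 without 4T1 replicate 1.

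The sites with lower usage did not depend on the scaling in this way. Reads at the Rps26, Rplp2, Eif4a1 and Eif4a2 sites fell under both scalings, with log2 changes of -2.40 to -4.08 with size factors and of -1.79 to -3.48 with totals. For Eif4a2 the last exon did not pass under either scaling (log2 change 0.01 and 0.59). Mrps31 fell by 2.44 with size factors, on 2 and 3 reads against 8 and 11, and was removed by the filter with totals. Its call was lost with DESeq2 (-2.50, adjusted p = 0.085). Mrpl47 and Mrps25 site 1 were removed under both scalings.

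**Figure D3:**
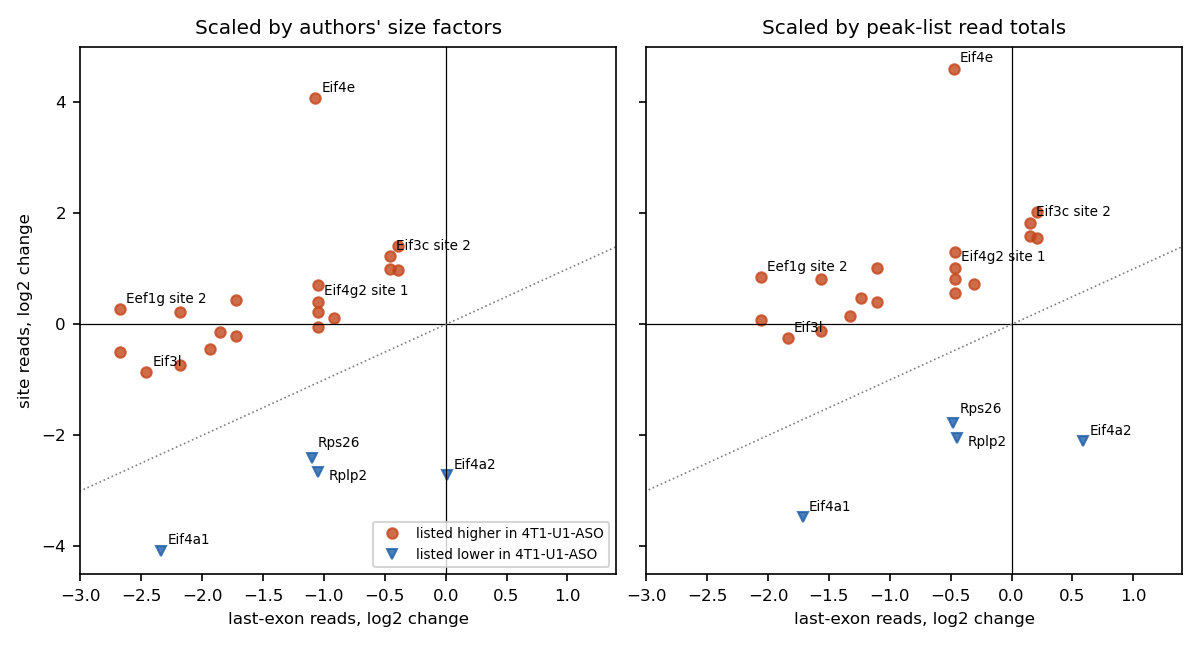
Log2 change (4T1-U1-ASO minus 4T1) of reads at the site against that at the last exon of the same gene, for 23 of the 24 sites tested under both scalings; the dotted line marks equal change, above which usage is higher. The 4 lower sites keep negative site changes in both panels, while most higher sites lie near 0 with the authors' size factors and above 0 with peak-list totals.

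Between the lines, few of these genes were listed, and 3 of the 24 genes of the U1-ASO table recurred: Eif4a1, Eif2a (at another site) and Mrps31. The 4 comparisons share libraries (each of the 4 lines is in 2 of them, and 4T1 also in the U1-ASO comparison), so their entries are not independent. In 4T1 against 67NR, usage was higher at 2 member sites and lower at 1; 23.8% of 122 listed sites were higher. In 4T07 against 67NR it was higher at 1 and lower at 3 (17.8% of 214 higher). In 4T07 against 168FARN it was lower at all 4 (79.6% of 329 listed sites lower and 20.4% higher). In 4T1 against 168FARN none of these genes was listed, among 85 sites. In edgeR's test relative to the last exon all 11 entries passed, where the 23.8%, 17.8% and 20.6% of tested sites that passed upward and the 76.2%, 82.2% and 79.4% that passed downward add up to every tested site. With the authors' size factors, reads at the site alone rose at 3 and fell at 7 of the 10 entries that could be tested. Over all tested sites the shares that rose and fell were 17.8% and 71.1% in 4T1 against 67NR, 13.5% and 70.9% in 4T07 against 67NR, and 21.8% and 60.6% in 4T07 against 168FARN. Last-exon reads rose at 6 entries and fell at 1, where the shares of all genes were 37.9% and 25.9%, 40.6% and 19.3%, and 52% and 24%. Without 4T07 replicate 1, or without 67NR replicate 2, last-exon reads rose at 3 entries.

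Eif4e2 encodes a cap-binding protein related to eIF4E that does not bind the scaffold and is known to repress translation. In every line where it was listed, the intronic site (chr1:89124237-89124850) held more reads than the last exon. It held 415 and 329 reads in 67NR, 882 and 909 in 4T1, 819 and 884 in 168FARN and 410 and 505 in 4T07. The last exon held 86 and 89, 70 and 97, 78 and 75, and 123 and 110 reads in the same order. Usage was 80.8% ± 2.9 in 67NR, 91.5% ± 1.6 in 4T1, 91.7% ± 0.62 in 168FARN and 79.5% ± 3.7 in 4T07. The invasive 4T1 was thus above the non-invasive 67NR by a log2 change of 1.35 ± 0.31 (SE, adjusted p = 0.000544, edgeR), and the invasive 4T07 below the non-invasive 168FARN by -1.51 ± 0.22 (adjusted p = 2.7e-06).

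Site reads of Eif4e2 were higher in 4T1 than in 67NR by 1.60 log2 (adjusted p = 0.0016, edgeR; 0.053 without 4T1 replicate 2) and its last-exon change was 0.26 (adjusted p = 0.53). In 4T07 against 168FARN the site fell by 0.84 log2. The last exon changed by 0.67 (adjusted p = 0.014, edgeR), a call lost without 4T07 replicate 1 and without either 168FARN library (adjusted p = 0.076 to 0.13). Eif4e2 was not listed for U1-ASO. Its site held 563 and 520 reads in the U1-ASO peak lists and 882 and 909 in those of 4T1.

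Eif6 encodes a factor that keeps the large subunit from joining the small one. Its site (chr2:155650863-155651179) was lower in both invasive lines than in 67NR. It held 40 and 39 reads in 67NR, 21 and 18 in 4T1 and 12 and 13 in 4T07, next to 1414 and 1242, 2484 and 2116, and 1494 and 1626 last-exon reads. Usage was 2.90% ± 0.21 in 67NR, 0.841% ± 0.0037 in 4T1 and 0.795% ± 0.0026 in 4T07. In 4T1 the last exon rose by 1.14 log2 (adjusted p = 1.2e-05, edgeR). The site changed by -0.68 (adjusted p = 0.049), a call at the threshold that was lost with TMM (-0.47, adjusted p = 0.14), DESeq2 (adjusted p = 0.32), no filter (0.054) and without 4T1 replicate 2 or either 67NR library (0.13 to 0.21). In 4T07 the site fell by 1.46. The last exon changed by 0.42 (adjusted p = 0.042), lost without either 4T07 library or 67NR replicate 2 (0.061 to 0.45). In the peak lists the site held 19 and 13 reads in 168FARN, the other non-invasive line, near the counts of 4T1 and 4T07.

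Eif4a1 was higher in 4T1 than in 67NR, at the site that was lower with the morpholino. It held 50 and 54 reads in 4T1 against 13 and 10 in 67NR, and usage was 1.97% ± 0.14 against 0.621% ± 0.041, near the 0.591% ± 0.34 of the U1-ASO libraries. These comparisons share the 4T1 libraries. In the peak lists, this site held 50 and 54 reads in 4T1 and 3 to 27 in the 8 other libraries.

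Mrpl15, a mitochondrial protein of the large subunit, was lower in 4T07 than in both non-invasive lines (chr1:4771321-4771744). It held 5 and 2 reads in 4T07, 33 and 27 in 67NR and 37 and 38 in 168FARN. Usage was 0.607% ± 0.43, 4.45% ± 0.0014 and 3.02% ± 0.086 in the same order. The last exon changed by 0.08 log2 against 67NR (adjusted p = 0.66, edgeR) and fell by 0.95 against 168FARN. In the peak lists 4T1 held 24 and 29 reads at the site.

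Mrps31 was lower in 4T07 than in 67NR, with 1 and 3 site reads against 25 and 26 and 115 and 134 last-exon reads against 105 and 102 (chr8:23534100-23534296). Usage was 1.53% ± 0.94 against 19.8% ± 0.76, a log2 change of -3.87 ± 0.52 (SE, adjusted p = 6.6e-06, edgeR), the largest among the 11 entries of the line comparisons. In the table of the U1-ASO comparison the same site was at 7.12% in 4T1 and 1.37% with the morpholino, so that 67NR held the highest of the 4 values, which come from 2 separate tables. In the peak lists 168FARN, the other non-invasive line, held 3 and 4 reads at the site.

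The other 3 entries rest on fewer reads. Eif2ak4 encodes the kinase that phosphorylates eIF2 when amino acids are short. Its site (chr2:118268855-118269274) held 3 and 3 reads in 4T07 and 20 and 19 in 168FARN, next to 33 and 43 against 26 and 42 in the last exon, and usage was 7.43% ± 1.3 against 37.3% ± 8.7. Eif2a site 2 (chr3:58351012-58351090) held 2 and 0 reads against 5 and 6. Rpsa, a protein of the small subunit, was the 1 cytosolic ribosomal protein in a line table and held 15 and 23 reads in 4T07 and 9 and 7 in 67NR (chr9:120037899-120038674), a usage of 0.461% ± 0.13 against 0.154% ± 0.00013. Without 4T07 replicate 2, neither Rpsa (adjusted p = 0.12, edgeR) nor Eif2a site 2 (adjusted p = 0.072) passed.

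**Figure D4:**
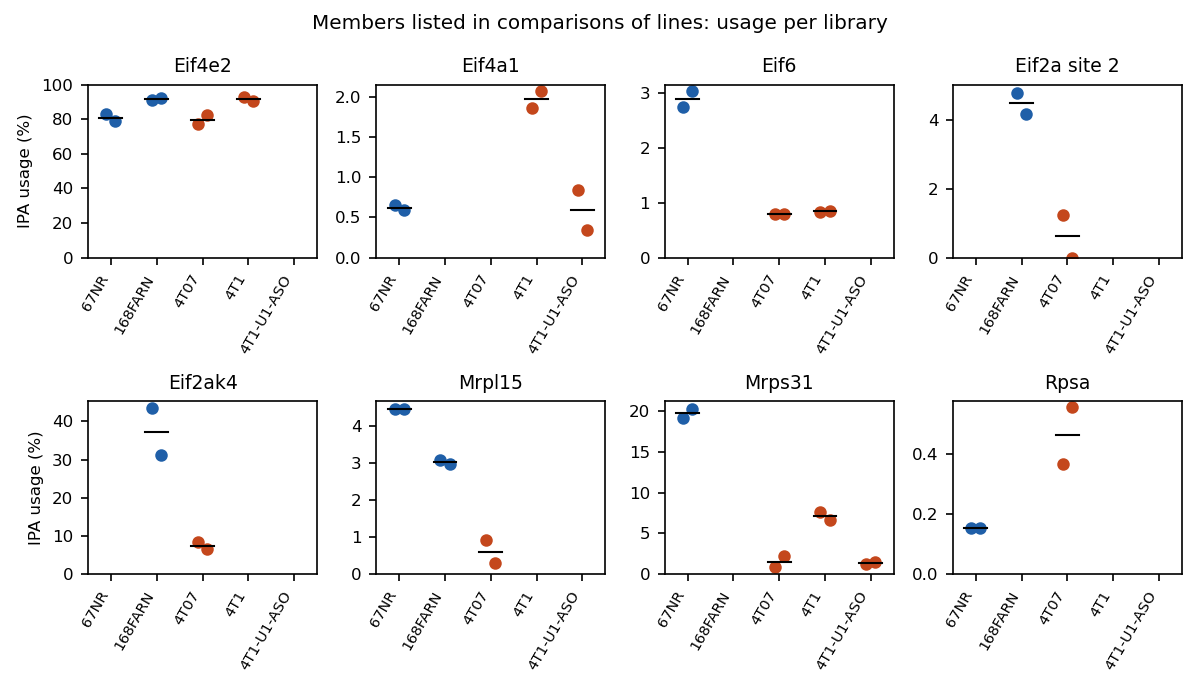
IPA usage (percent) per library of the 8 genes listed in comparisons of lines, with the mean of each group as a bar; blue points are the lines labelled non-invasive and orange points the invasive lines and U1-ASO, and groups without points were not listed for that site. Eif4e2 was high in 168FARN and 4T1 and lower in 67NR and 4T07, while Eif6, Mrpl15 and Mrps31 were highest in 67NR; scales differ between panels.

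For sites listed only with U1-ASO, the peak lists give reads in the lines, unscaled and without last-exon reads. The Eif4a2 site held 149 and 141 reads in 4T1 and 30 to 78 in the other 8 libraries. Eif4g2 site 1 held 608 and 582 in U1-ASO and 271 to 467 in the lines with the site's chromosome in their list. Eif4g1 site 1 was lowest in 4T1, with 76 and 65 reads, and held 92 and 94 in U1-ASO and 144 to 374 in the 3 other lines. These lists held a peak at 286 of the 460 combinations of site and library, and a missing peak is not a count of 0, since Rps26 had no peak in either 4T1 list while the table gave 978 and 1002 reads.

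Other genes of protein synthesis were listed mostly with higher usage with the morpholino. Of 40 genes of aminoacyl-tRNA synthetases, which load amino acids onto tRNAs, and of their Aimp partner proteins, 14 were listed. They had 19 higher sites and 0 lower. Of 86 ribosome biogenesis genes 26 were listed, with 28 higher sites and 4 lower. Of 49 further translation genes 10 were listed, with 12 higher and 2 lower. Named after their values were seen, the lower ones included Gnb2l1 (the small-subunit protein Rack1, 1.86% ± 0.17 against 3.95% ± 0.50) and Nop56, a core protein of small nucleolar particles (3.34% ± 2.8 against 32.1% ± 5.1). Of all 1561 listed sites 87.6% were higher. In 4T07 against 168FARN the kinase gene Mtor, also named after its values were seen, which signals to both initiation and ribosomal protein synthesis, was lower, at 20.7% ± 3.0 against 48.8% ± 2.8. The 3 other entries of these lists there were Ddx27 (0.49% ± 0.15 against 1.98% ± 1.2) and Polr1a (8.10% ± 0.22 against 18.2% ± 2.2), both lower, and Iars2, higher (2.2% ± 0.24 against 0.292% ± 0.41). Against 67NR, 4T1 had a lower site in Rrp1, and against 168FARN one in Nop2.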

How the data were processed

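Polyadenylated RNA was primed with anchored oligo-dT and read from its 3' ends, per the labels' protocols. Per the submitters' processing notes, the tools were DESeq2 1.4.5, bedtools 2.17.0, Bowtie2 2.2.5 and SAMtools 1.1 on mm9, with no role stated. The authors deposited peak lists with a read count per peak and tables of IPA sites. Per the file headers these hold a log2 fold change, its standard error, a score (the test statistic), p-values and a normalized read signal of site and last exon per library. The deposited sign was turned in the tables against 67NR.

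Whole reads were recovered from the signal (100% of values whole within 0.1 read). The quasi-likelihood test of edgeR 4.0.16 (R 4.3.3), scaled by the authors' size factors, was fitted to all listed sites of a table with a threshold of 0.05 on p-values adjusted by Benjamini-Hochberg, for site relative to last exon, site alone and last exon alone. It was checked on simulated data. DESeq2 1.42.0, TMM, no filter, library and replicate blocks, left-out libraries and a deposited adjusted p of at most 0.01 were alternatives; scaling by peak-list totals and the Eif4e2 difference were added after seeing the data.

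Members and gene lists were chosen with earlier results of these data known. Named sites were all those in line tables, the 6 largest deposited rises and 6 largest falls with U1-ASO, the 4 with the highest usage per group, genes with 2 or more sites or in both kinds of table, Eif4g2 and Eif4e2. A peak within a site needed an overlap of 1 base. The depth per site is its number of reads; intervals and limits cover counting error only. No mm9 genome was used here, so site sequences are not shown. The values of 1 member gene are not reported here; it stays in the counts.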

Additional observations from a re-analysis of the deposited data

Results flagged for a closer look

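Eif4e2 had opposite changes in 2 pairs of lines that share no library. Its usage was higher in 4T1 (91.5% ± 1.6) than in 67NR (80.8% ± 2.9) and lower in 4T07 (79.5% ± 3.7) than in 168FARN (91.7% ± 0.62). The difference between the log2 changes, from an interaction in edgeR, was 2.86. The site had passed in both tables with opposite signs before this was computed on the same reads, so the value restates those changes and is given with no p. Both 4T1 libraries were above both 67NR libraries, and both 4T07 libraries below both 168FARN libraries. Paired the other way, 4T1 with 168FARN and 4T07 with 67NR also share no library. Eif4e2 was listed in neither of those comparisons, with usages of 91.5% and 91.7%, and of 79.5% and 80.8%.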

How the results depend on the processing

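The counts of sites passing relative to the last exon (38, 3, 4, 0 and 4 over the 5 comparisons) were the same with TMM, DESeq2, no filter, the library block and the replicate block. With a deposited adjusted p of at most 0.01 they were 11, 0, 3, 0 and 2. Leaving out each library gave 20 to 38 with U1-ASO, 3 in 4T1 against 67NR, and 3 to 4 in both 4T07 comparisons. Members with U1-ASO whose site reads rose numbered 4, and 7 with TMM, 10 with no filter, 13 with totals and 0 to 7 without a library. Genes whose last exon fell numbered 21, 12 with totals and 12 to 22 without a library; the last exon of Eif3c turned to 0.15 with totals. In the line comparisons, last exons that rose numbered 6, and 3 to 7 without a library (3 without 4T07 replicate 1 and 3 without 67NR replicate 2). An overlap of 0.5 of the shorter interval left 283 of 286 peak-list entries.

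The replicate numbers pair samples by number only: the deviations of libraries with the same number correlated at -0.04 to 0.15. The replicate block left 5 sites that rose, 6 that fell and 19 genes whose last exon fell with U1-ASO, and changed no count by over 1.5 times. Depth limits the 16 sites with under 20 reads in every library.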
